A study of Rattus norvegicus with 9 samples.

Results

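The empty defect (ED) group of a rat patellar enthesis study was compared between 12 and 4 weeks after surgery, using every target gene of a PCR array (84 of 84) in the 2 ED columns among the 9 columns of the series. In ED rats the patellar tendon was detached from the tibia, a bone defect was sawn at the insertion, nothing was placed in it, and the tendon was sutured back over the defect. The labels give this as a tendon-to-bone suture and name the group a control. The animals were adult male Sprague Dawley rats with no transgene, and a suture loop around the patella and through the tibia was used to hold the length of the tendon. The other columns were native enthesis from the uninjured leg, silk fibroin scaffolds whose transition was mixed (S-MT) or abrupt (S-AT), and a transversal cut of the tendon (TC). The operated groups were sampled at 4 and 12 weeks, and native enthesis had 1 column, entered at 4 weeks. The design called for 8 samples in every group at each time. The deposited table nevertheless has 1 value per well and column, and no source used here tells if that value comes from 1 rat, from an average or from RNA of several rats. There is therefore no replicate, no error and no test for any difference below. The tissue was taken after mechanical testing of the joint, which followed frozen storage and thawing.

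The enthesis joins tendon to bone through a zone of fibrocartilage. Type I collagen carries the tensile load of tendon, type III collagen is laid down early in scar and repair tissue, and type II collagen marks cartilage. BMP and TGF-beta ligands signal through paired receptors and SMAD proteins to steer cartilage and bone formation, while Runx2 and Sp7 switch on the osteoblast program that ends in mineralized matrix. In an empty defect the question is how the expression of these genes moves as the sutured tendon heals onto bone.

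The readout was the threshold cycle (Ct), the cycle of the PCR at which SYBR Green fluorescence passes a set level. For wells of the same assay that run alike, an earlier Ct means more template. A Ct over 35, or none at all, was taken as over the cut-off. At 4 weeks 42 of the 84 target genes had a Ct within the cut-off, 29 had a later Ct and 13 were undetermined. At 12 weeks 83 had a Ct within it, and only *Ahsg*, which encodes the serum glycoprotein fetuin-A, was undetermined at both times. In the 8 columns other than ED at 12 weeks, between 20 and 66 target genes were within the cut-off. The genes drew together, as 71 target genes lay between 28 and 32 cycles at 12 weeks against 10 at 4 weeks.

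Well H06 holds the genomic DNA control in the usual layout of this maker, a well meant to amplify untranscribed genomic DNA rather than cDNA, although the files give the well no name. Its Ct was 34.01 at 4 weeks and 29.2 at 12 weeks, so it came 4.84 cycles earlier. The median target gene, with Ct over 35 set to 35, came 3.83 cycles earlier. At 12 weeks 66 of the 84 target genes (78.6%) had a Ct less than 2 cycles from well H06, and 40 had one less than 1 cycle from it. At 4 weeks these numbers were 34 and 19. A gene was called ahead of the well when its Ct was at least 1 cycle earlier, and 23 genes were ahead at 4 weeks and 6 at 12 weeks. Assays differ in efficiency, so a lead is given in cycles and not as a ratio of molecules. Whether genomic DNA had a part in the values below was not tested.

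**Figure D1:**
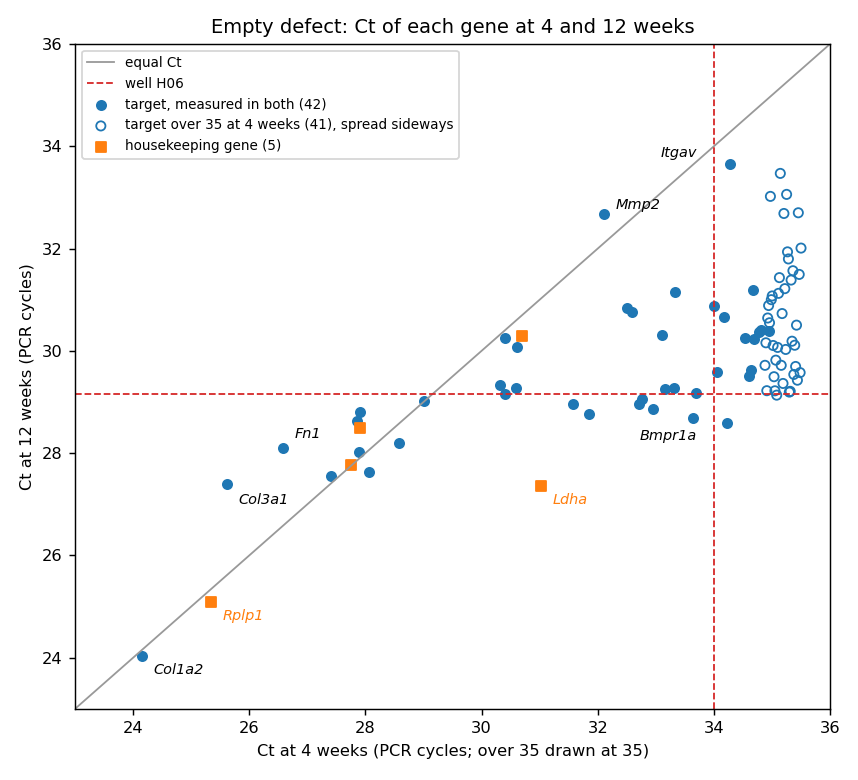
Ct of each target gene (circles) and housekeeping gene (squares) in the empty defect, with 4 weeks on the x axis and 12 weeks on the y axis, both in PCR cycles. Dashed lines mark well H06, at 34.01 and 29.2 cycles. Open circles are the 41 genes over the cut-off at 4 weeks, which lie between 29.1 and 33.5 cycles at 12 weeks.

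The 6 genes ahead of the well at 12 weeks were all ahead of it at 4 weeks. They were *Col1a2*, *Col3a1*, *Col1a1* and *Col2a1*, chains of the fibrillar collagens, and *Comp* and *Fn1*, which encode the cartilage oligomeric matrix protein and fibronectin. Their leads were 5.95 to 9.86 cycles at 4 weeks and 1.07 to 5.13 cycles at 12 weeks. The widest at both times was that of *Col1a2*. The other 17 genes ahead at 4 weeks were no longer ahead at 12 weeks, and 0 genes were newly ahead. Of the 42 genes measured in both columns, 38 lost ground to the well and 4 gained. The 4 were *Bmpr1a* (by 0.78 cycles), *Igf1r* (0.27), *Col10a1* (0.17) and *Pdgfa* (0.10).

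**Figure D2:**
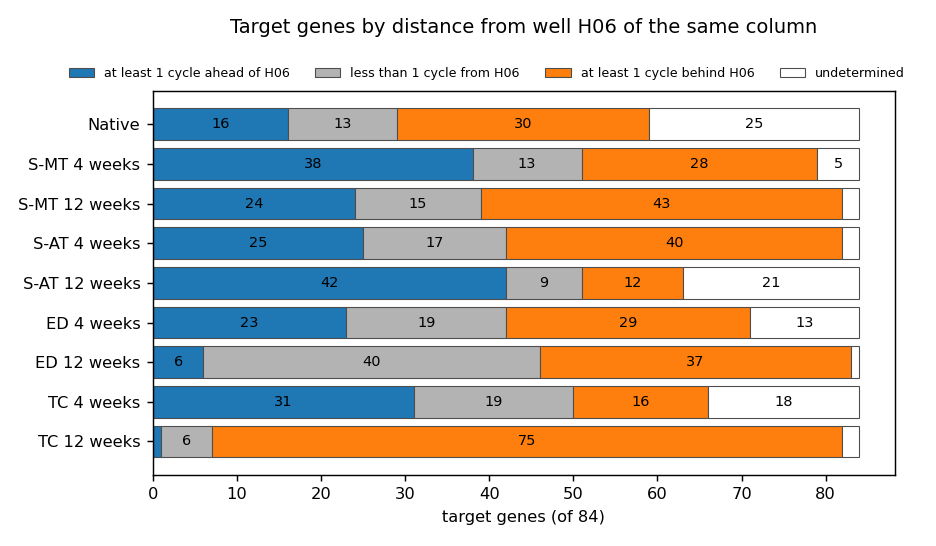
Number of target genes (x axis, of 84) at least 1 cycle ahead of well H06, less than 1 cycle from it, at least 1 cycle behind it or undetermined, for each of the 9 columns of the series (y axis). ED at 12 weeks has 40 genes less than 1 cycle from the well, against 6 to 19 in the other 8 columns.

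Across the other 8 columns, between 9 and 40 genes lay less than 2 cycles from well H06. TC at 12 weeks had a similarly early well (30.4 cycles) with 1 gene ahead of it, but there 75 genes came at least 1 cycle behind the well, against 37 in ED at 12 weeks. ED and TC at 12 weeks therefore share the early well and few genes ahead of it, but not the crowding of genes around it. An early well did not always go with few genes ahead, as S-MT at 12 weeks had it at 30.9 cycles with 24 genes ahead.

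The folds rest on the reference genes, and these moved apart between the columns. *Ldha*, the lactate dehydrogenase of glycolysis, had a Ct of 31.0 at 4 and 27.4 at 12 weeks, a shift of 3.67 cycles. *Rplp1*, a protein of the ribosomal stalk, had 25.3 and 25.1 cycles. The gap from *Rplp1* to *Ldha* was 5.69 cycles at 4 weeks and 2.26 cycles at 12 weeks, the highest and the lowest of the 9 columns. The other 3 housekeeping genes stayed within 0.58 cycles of their Ct at 4 weeks: *Actb* went from 27.9 to 28.5, *B2m* from 27.8 to 27.8 and *Hprt1* from 30.7 to 30.3 cycles. Using *Rplp1* alone in place of the mean of both raises every log2 fold of 12 over 4 weeks by 1.72, a factor of 3.29. Counts are therefore given with both references. Where only the fold with the mean is printed for a gene, its fold with *Rplp1* alone is 3.29 times as high. Wells H10 to H12, positive PCR controls in the usual layout, had a mean Ct of 21.1 at 4 and 19.1 at 12 weeks, and the reverse transcription control wells (H07 to H09) of 23.5 and 22.04. They thus came 2.01 and 1.44 cycles earlier at 12 weeks, and the mean of *Ldha* and *Rplp1* came 1.96 cycles earlier. Raw Ct values are not corrected for these shifts, so a level raw Ct does not by itself show a level amount of template.

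Against the mean of *Ldha* and *Rplp1*, 56 of 83 genes (67.5%, *Ahsg* having no fold) were at least 2-fold higher at 12 than at 4 weeks and 14 (16.9%) were at least 2-fold lower. Against *Rplp1* alone, 68 (81.9%) were higher and 4 (4.82%) lower. The median log2 fold was 1.92 and 3.64. For 41 genes the Ct at 4 weeks was over the cut-off, so that their fold is a lower bound, and 36 of the 56 higher genes were of this kind. Among the 42 genes measured in both columns, 20 were higher and 14 lower with the mean, and 27 were higher and 4 lower with *Rplp1* alone. In whole tissue, fewer cells of a type and less RNA per cell cannot be told apart. None of the 56 higher genes was ahead of well H06 at 12 weeks. Of these, 47 lay less than 2 cycles from the well and the largest lead among them was the 0.57 cycles of *Bmpr1a*.

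The genes were also counted by their Ct at 4 weeks, which is itself a term of the fold, so that an order of this kind is partly fixed by the grouping. Each of the 10 genes with a Ct up to 30 at 4 weeks were at least 2-fold lower with the mean, and 4 of them were lower and 0 higher with *Rplp1* alone. Their Ct moved little, from 1.78 cycles later to 0.43 cycles earlier. The 13 genes between 30 and 33 cycles were mixed, with 4 higher and 3 lower with the mean and 9 higher and 0 lower with *Rplp1* alone. Among the 19 genes between 33 and 35 cycles, 16 were higher with the mean and 18 with *Rplp1* alone. Of the 42 genes over the cut-off, 36 were higher with the mean and 41 with *Rplp1* alone. These last 42 genes, apart from *Ahsg*, had a Ct between 29.1 and 33.5 at 12 weeks, with a median of 30.5. The cut-off adds to this, since a gene set to 35 at 4 weeks cannot come later.

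**Figure D3:**
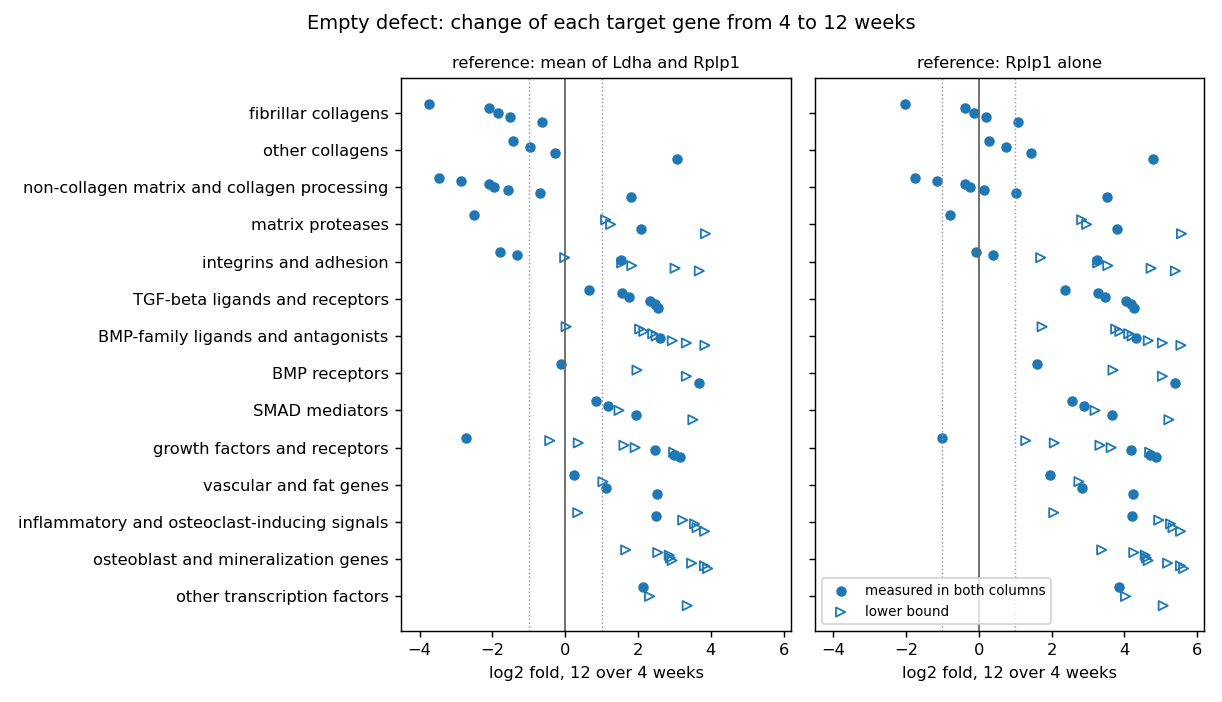
Log2 fold of 12 over 4 weeks (x axis) for each target gene, grouped by function (y axis), against the mean of *Ldha* and *Rplp1* (left) and *Rplp1* alone (right). Filled circles were measured in both columns, open triangles are lower bounds and dotted lines mark 2-fold. *Col3a1*, *Fn1*, *Bgn*, *Igf1* and *Mmp2* lie lowest in both panels, and each gene is shifted by 1.72 between them.

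Fibrillar collagens moved less in the raw Ct than most genes, between 1.78 cycles later (*Col3a1*) and 1.31 cycles earlier (*Col5a1*). With the mean reference 0 of 5 were at least 2-fold higher and 4 were lower, beside 67.5% and 16.9% of all genes, with a median log2 fold of -1.85. With *Rplp1* alone 1 was higher and 1 lower, beside 81.9% and 4.82% of all genes, and the median was -0.13. *Col3a1*, the chain of type III collagen, had a Ct of 25.6 at 4 and 27.4 at 12 weeks. It was 13.4-fold lower with the mean and 4.06-fold lower with *Rplp1* alone, the lowest value of the array with each reference. Its lead over well H06 went from 8.39 to 1.76 cycles. *Col1a2*, the second chain of type I collagen, had the earliest Ct of all target genes, at 24.1 and 24.0 cycles. It was 3.60-fold lower with the mean but only 1.10-fold lower with *Rplp1* alone. *Col1a1*, the main chain of type I collagen, had Ct values of 27.4 and 27.5. It was 4.30-fold lower with the mean and 1.31-fold lower with *Rplp1* alone. The cartilage collagen *Col2a1* had 28.1 and 27.6 cycles. It was 2.87-fold lower with the mean and 1.14-fold higher with *Rplp1* alone, so that its direction turned with the reference. *Col5a1*, a chain of the type V collagen that sets fibril width, went from 30.6 to 29.3 cycles. It was 1.57-fold lower with the mean and 2.10-fold higher with *Rplp1* alone, and it lay 0.11 cycles behind well H06 at 12 weeks. *Col3a1* was thus the only fibrillar collagen past 2-fold in the same direction with both references, while the type I chains were within 2-fold with *Rplp1* alone.

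The other collagens were spread more widely. *Col10a1*, the collagen of hypertrophic cartilage, had a Ct of 34.6 at 4 and 29.6 at 12 weeks, and was over the cut-off in native tissue. It was 8.34-fold higher with the mean and 27.4-fold higher with *Rplp1* alone. It was behind well H06 at both times, by 0.63 and 0.46 cycles, so that its Ct and that of the well moved nearly together. *Col4a1*, of the basement membrane, had Ct values of 30.6 and 30.1, and was 2.69-fold lower with the mean and 1.22-fold higher with *Rplp1* alone. *Col6a1*, of the pericellular matrix, had 30.3 and 29.3 cycles, and was 1.96-fold lower and 1.68-fold higher. *Col14a1*, which binds to the surface of collagen fibrils, had 32.5 and 30.8 cycles, and was 1.22-fold lower and 2.70-fold higher. None of the 4 was ahead of the well at 12 weeks, against 3 at 4 weeks. Over all 84 target genes, 6 were ahead at 12 weeks and 23 at 4 weeks.

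Matrix proteins and proteins that fold or trim collagen were the other set with early Ct. Over all 84 target genes, 23 were ahead of well H06 at 4 weeks and 6 at 12 weeks. All 7 genes of this set were ahead at 4 weeks, and 2 (*Comp* and *Fn1*) at 12 weeks. With the mean 5 were at least 2-fold lower and 1 higher (median log2 fold -1.97), and with *Rplp1* alone 2 were lower and 2 higher (median -0.25). Of all genes 16.9% were lower and 67.5% higher with the mean, and 4.82% and 81.9% with *Rplp1* alone. *Fn1*, whose fibronectin forms the provisional matrix of wounds, had a Ct of 26.6 at 4 and 28.1 at 12 weeks. It was 11.1-fold lower with the mean and 3.36-fold lower with *Rplp1* alone. *Bgn*, which encodes the small proteoglycan biglycan, went from 27.9 to 28.8 cycles, and was 7.27-fold and 2.21-fold lower. *Fn1* and *Bgn* thus stood with *Col3a1* among the genes that came later in the raw Ct. *Comp* had 27.9 and 28.02 cycles and was 4.26-fold lower with the mean, but 1.29-fold lower with *Rplp1* alone. *Anxa5*, a calcium-dependent phospholipid-binding protein, had 29.0 cycles at both times and was 3.91-fold and 1.19-fold lower. *Spp1*, which encodes osteopontin, had 28.6 and 28.2 cycles, and was 2.99-fold lower with the mean and 1.10-fold higher with *Rplp1* alone. The collagen chaperone *Serpinh1* went from 30.4 to 29.2 cycles, the Ct of the well itself at 12 weeks, and was 1.63-fold lower and 2.02-fold higher. *Bmp1*, the protease that removes the C-propeptide of fibrillar procollagens, was the exception, with 32.7 cycles at 4 weeks and 29.0 at 12 weeks. It was 3.47-fold higher with the mean and 11.4-fold higher with *Rplp1* alone, and its lead over the well went from 1.30 to 0.21 cycles.

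**Figure D4:**
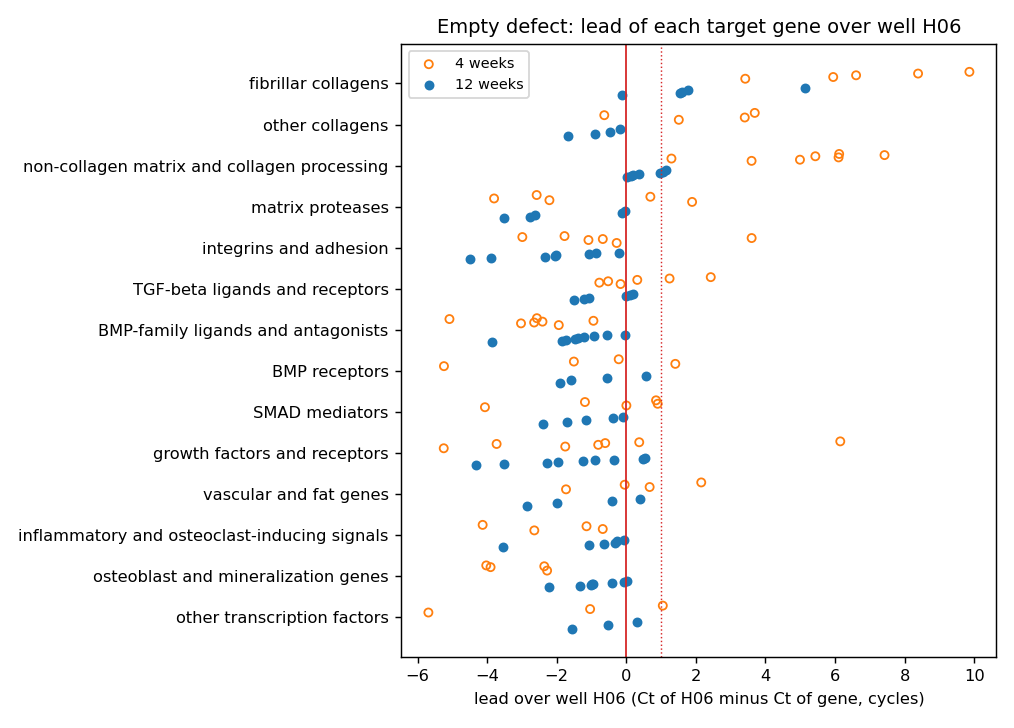
Lead of each target gene over well H06 of the same column in PCR cycles (x axis), for ED at 4 weeks (open) and 12 weeks (filled), grouped by function (y axis), with undetermined wells left out. The solid line is the well and the dotted line a lead of 1 cycle. At 12 weeks only 4 fibrillar collagens, *Comp* and *Fn1* lie to the right of the dotted line, and *Col1a2* has the widest lead, 5.13 cycles.

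*Igf1*, a growth factor for tendon cells, was the fourth gene lower with both references. Its Ct was 27.9 at 4 weeks and 28.6 at 12 weeks, which made it 6.67-fold lower with the mean and 2.03-fold lower with *Rplp1* alone. Its lead over the well fell by 5.62 cycles, to 0.53 cycles. The gene of its receptor, *Igf1r*, was undetermined in native tissue and went the other way, from 34.6 to 29.5 cycles. It was 8.90-fold higher with the mean, and it stayed behind the well by 0.61 and 0.34 cycles. Among the other growth factor genes, *Pdgfa*, a chain of platelet-derived growth factor, went from 33.6 to 28.7 cycles and was 7.94-fold higher. *Fgfr1*, an FGF receptor, went from 34.8 to 30.4 cycles and was 5.49-fold higher. *Egf*, *Fgf1*, *Fgf2*, *Fgfr2* and *Ihh* were over the cut-off at 4 weeks and had Ct values between 30.1 and 33.5 at 12 weeks. *Fgfr2* (33.5 cycles at 12 weeks) and *Ihh* (32.7) were the latest of them, and a lower bound under 1-fold with the mean, as for *Fgfr2*, shows no decrease. Over the whole set 6 of 9 genes were higher and 1 lower with the mean, and 8 higher and 1 lower with *Rplp1* alone. Of all genes 67.5% were higher and 16.9% lower with the mean, and 81.9% and 4.82% with *Rplp1* alone.

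Matrix proteases moved in opposite directions. *Mmp2*, a gelatinase made by fibroblasts, had a Ct of 32.1 at 4 and 32.7 at 12 weeks. It was 5.70-fold lower with the mean, but within 2-fold (1.73-fold lower) with *Rplp1* alone. It was 1.89 cycles ahead of the well at 4 weeks and 3.51 cycles behind it at 12 weeks. *Ctsk*, the collagen-degrading cathepsin K of osteoclasts, went from 33.3 to 29.3 cycles and was 4.22-fold higher with the mean and 13.9-fold higher with *Rplp1* alone. At 12 weeks it lay 0.12 cycles behind the well. The gelatinase *Mmp9* had a Ct of 36.6 at 4 and 29.2 at 12 weeks, so that it was at least 14.4-fold higher with the mean, and it lay 0.03 cycles behind the well. *Mmp8* and *Mmp10*, also over the cut-off at 4 weeks, reached 31.8 and 31.9 cycles and were at least 2.37-fold and 2.16-fold higher. *Ctsk* and *Mmp9*, both known as osteoclast genes, thus came within 0.12 cycles of the well, while the other 3 proteases came later than it by more than 2 cycles.

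Of 8 integrin and adhesion genes, 5 were at least 2-fold higher and 2 lower with the mean. With *Rplp1* alone 6 were higher and 0 lower. Of all genes 67.5% were higher and 16.9% lower with the mean, and 81.9% and 4.82% with *Rplp1* alone. Across the array 23 of the 84 target genes were ahead of the well at 4 weeks. Among the 8 this held only for *Itgb1*, the common beta chain of collagen-binding integrins. Its Ct was 30.4 and 30.2, and it was 3.47-fold lower with the mean and 1.06-fold lower with *Rplp1* alone. *Itgav*, an alpha chain that binds osteopontin and fibronectin, had 34.3 and 33.6 cycles. It was 2.49-fold lower with the mean, 1.32-fold higher with *Rplp1* alone, and it had the latest Ct of the array at 12 weeks. It was the only lower gene among the 19 with a Ct between 33 and 35 at 4 weeks. The mesenchymal cadherin *Cdh11* went from 34.7 to 31.2 cycles and was 2.89-fold higher with the mean. The other 5 were over the cut-off at 4 weeks. Of these *Itga2* and *Vcam1* reached 31.2 and 31.5 cycles. The adhesion molecule *Icam1* reached 29.4 cycles, which made it at least 12.8-fold higher, and the integrin alpha chain *Itga3* reached 30.03 cycles, which made it at least 8.10-fold higher. *Itgam*, an integrin chain of macrophages and neutrophils, was undetermined at 4 weeks and had a Ct of 33.1 at 12 weeks, 3.90 cycles behind the well.

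TGF-beta ligands and receptors were all measured in both columns, so that none of their folds is a bound. With the mean 5 of 6 were at least 2-fold higher (median log2 fold 2.04), and with *Rplp1* alone 6 of 6 (median 3.76), beside 67.5% and 81.9% of all genes. *Tgfb1*, the ligand best known for scar formation, had a Ct of 33.7 at 4 and 29.2 at 12 weeks, and was 5.89-fold higher with the mean. *Tgfb2* went from 34.8 to 30.4 cycles and was 5.48-fold higher. *Tgfb3*, which had the earliest Ct of the set at 4 weeks, went from 31.6 to 29.0 cycles and was 1.58-fold higher with the mean and 5.21-fold higher with *Rplp1* alone. The ligand with the earliest Ct at 4 weeks thus had the smallest fold, but that Ct is itself a term of the fold, so this order is partly fixed. Of the receptors, *Tgfbr3* was 5.03-fold higher with the mean (34.5 to 30.2 cycles), *Tgfbr2* 3.37-fold (32.8 to 29.1) and *Tgfbr1* 2.95-fold (34.2 to 30.7). All 6 lost ground to well H06, by 0.33 to 2.22 cycles, beside 38 of the 42 genes measured in both columns.

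BMP-family ligands and antagonists were nearly all over the cut-off at 4 weeks. *Bmp5* was the exception, with a Ct of 34.95 that was just inside it, and reached 30.4 cycles at 12 weeks, 6.08-fold higher with the mean. Of the 9 genes, 8 were at least 2-fold higher with the mean and 9 with *Rplp1* alone, beside 67.5% and 81.9% of all genes. At either time 0 were ahead of the well, beside 23 of all 84 target genes at 4 weeks and 6 at 12 weeks. *Nog*, which encodes the BMP antagonist noggin, had a Ct of 36.6 at 4 and 29.2 at 12 weeks, and was at least 14.3-fold higher with the mean. The antagonist *Chrd* (chordin) was undetermined at 4 weeks and had 30.1 cycles at 12 weeks. *Gdf10*, a distant member of the family, went from 39.1 to 29.7 cycles. The bone-inducing ligands *Bmp2*, *Bmp4* and *Bmp7* reached 30.6, 30.5 and 31.0 cycles, with lower bounds of 5.29-fold, 5.64-fold and 4.13-fold, and *Bmp3* reached 30.9. *Bmp6* had a Ct of 35.9 at 4 and 33.02 at 12 weeks, a lower bound of 1.02-fold, and came 3.86 cycles behind the well. All 9 genes were over the cut-off in native tissue, where 64 of the 84 target genes were over it.

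The BMP receptor gene *Bmpr1a* had the largest fold among genes measured in both columns. Its Ct was 34.2 at 4 weeks and 28.6 at 12 weeks, so that it was 12.7-fold higher with the mean and 41.9-fold higher with *Rplp1* alone. It moved from 0.22 cycles behind the well to 0.57 cycles ahead of it, short of the 1 cycle required here. *Bmpr2*, the type II receptor, went from 32.6 to 30.8 cycles and was 1.08-fold lower with the mean and 3.04-fold higher with *Rplp1* alone. *Acvr1* and *Bmpr1b*, type I receptors, were over the cut-off at 4 weeks and reached 29.7 and 31.1 cycles. Among the SMAD genes, *Smad2*, which carries TGF-beta signals, went from 33.2 to 29.3 cycles and was 3.83-fold higher with the mean. *Smad4*, the partner shared by both pathways, went from 33.1 to 30.3 cycles and was 1.78-fold higher with the mean and 5.86-fold higher with *Rplp1* alone. *Smad5*, on the BMP branch, went from 34.004 to 30.9 cycles and was 2.26-fold higher with the mean. *Smad3* and *Smad1* were over the cut-off at 4 weeks and were at least 11.4-fold and 2.79-fold higher.

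Of 9 osteoblast and mineralization genes, 0 were within the cut-off at 4 weeks and 8, the exception being *Ahsg*, at 12 weeks. Of all 84 target genes, 42 were within it at 4 weeks and 83 at 12 weeks. All 8 were at least 2-fold higher with either reference, as lower bounds, with a median log2 bound of 2.91 with the mean and 4.63 with *Rplp1* alone. Among all 41 genes over the cut-off at 4 weeks with a fold, 36 were higher with the mean and 41 with *Rplp1* alone, beside 67.5% and 81.9% of all genes. *Dlx5*, an early osteoblast transcription factor, was undetermined at 4 weeks and had a Ct of 29.1 at 12 weeks, at least 15.05-fold higher with the mean. *Bglap*, which encodes osteocalcin, had 38.0 cycles at 4 weeks and 29.2 at 12 weeks and was at least 14.2-fold higher. *Runx2*, the master regulator of osteoblasts, was undetermined at 4 weeks and had 30.2 cycles at 12 weeks, at least 7.24-fold higher. Its downstream factor *Sp7* was undetermined and then had 30.5 cycles, at least 5.83-fold higher. The alkaline phosphatase gene *Alpl* was undetermined and then had 30.2 cycles, at least 7.402-fold higher. *Sost* and *Phex*, known from osteocytes, reached 30.1 and 31.4 cycles, and the vitamin D receptor gene *Vdr* reached 29.6. At 12 weeks these 8 genes lay between 0.03 cycles ahead of the well (*Dlx5*) and 2.22 cycles behind it (*Phex*). None of them was therefore clear of the well, beside 6 of all 84 target genes ahead of it at 12 weeks. The defining osteoblast genes were over the cut-off in native tissue too, where 64 of the 84 target genes were over it.

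Inflammatory and osteoclast-inducing signals resembled the osteoblast set. With the mean 5 of 6 genes were at least 2-fold higher, with a median log2 fold of 3.39, and with *Rplp1* alone 6 of 6, beside 67.5% and 81.9% of all genes. Of the 6 folds 5 are lower bounds. *Csf2*, a growth factor of granulocytes and macrophages, was undetermined at 4 weeks and had a Ct of 29.2 at 12 weeks, at least 14.2-fold higher. The cytokine gene *Tnf* had 38.1 and 29.4 cycles and was at least 12.3-fold higher. *Csf1*, a growth factor needed for osteoclasts, had 35.15 and 29.5 cycles, at least 11.7-fold higher, and *Csf3*, undetermined at 4 weeks, reached 29.8. *Nfkb1*, a subunit of NF-kB, was measured in both columns, with 34.7 and 30.2 cycles, and was 5.63-fold higher. *Tnfsf11*, which encodes the osteoclast inducer RANKL, was later, with 36.7 and 32.7 cycles, and its lower bound was 1.27-fold. All 6 came behind well H06 at 12 weeks, from 0.05 cycles for *Csf2* to 3.54 cycles for *Tnfsf11*. Over the whole array, 19 of the 84 target genes came before the well by any margin at 12 weeks.

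Of the vascular genes, *Vegfa*, the main endothelial growth factor, had a Ct of 31.9 at 4 and 28.8 at 12 weeks, and was 2.18-fold higher with the mean and 7.16-fold higher with *Rplp1* alone. Its receptor gene *Flt1* went from 34.1 to 29.6 cycles and was 5.73-fold higher with the mean. *Vegfb* was over the cut-off at 4 weeks, reached 32.01 cycles and was at least 2.05-fold higher. *Cd36*, a fatty acid carrier of fat cells, capillaries and macrophages, went from 33.3 to 31.1 cycles and was 1.18-fold higher with the mean and 3.88-fold higher with *Rplp1* alone. Among the remaining transcription factors, *Twist1*, of mesenchymal cells, went from 32.96 to 28.9 cycles and was 4.41-fold higher with the mean. *Sox9*, the regulator of cartilage genes, had a Ct of 35.05 that was just over the cut-off at 4 weeks and 29.7 at 12 weeks, at least 10.2-fold higher. *Gli1*, a target of hedgehog signals, had 39.7 and 30.7 cycles. *Sox9* was behind well H06 at both times, by 1.04 and 0.53 cycles, and its fold is a bound. Its known target *Col2a1* was ahead of the well at both times, and was lower with the mean and within 2-fold with *Rplp1* alone. As *Sox9* was not clear of the well, no difference between it and *Col2a1* is read from these values. None of the vascular, fat and remaining transcription factor genes was ahead of the well at 12 weeks, beside 6 of all 84 target genes.

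The same calculation gave other counts in the other operated groups. From 4 to 12 weeks, S-MT had 24 genes at least 2-fold higher of the 66 with a fold (36.4%) and 0 lower, S-AT had 0 of 57 higher and 44 (77.2%) lower, and TC had 12 of 52 (23.1%) higher and 4 (7.69%) lower. With *Rplp1* alone TC had 41 higher genes (78.8%), S-MT 27 (40.9%) and S-AT 0, while S-AT had 46 lower genes (80.7%). TC shared with ED a wide gap of *Ldha* to *Rplp1* at 4 weeks (5.38 cycles) that was narrower at 12 weeks (2.90), while the gap in the scaffold groups stayed between 3.10 and 3.25 cycles. Well H06 came 3.07 cycles earlier at 12 weeks in S-MT and 6.11 cycles earlier in TC, and 3.19 cycles later in S-AT. The mean Ct of wells H10 to H12 came 4.82 cycles later at 12 weeks in S-AT. It came 0.07 cycles earlier in S-MT, 0.04 in TC and 2.01 in ED. The part of this shift in the S-AT counts was not tested. The median target gene, with Ct over 35 set to 35, moved by 0.93 cycles in S-MT and by 0 in TC and S-AT. With the mean *Col3a1* was 13.4-fold lower in ED, 16.6-fold lower in S-AT, 3.30-fold lower in TC and 2.30-fold higher in S-MT. *Fn1* was 11.1-fold lower in ED, 19.5-fold lower in S-AT, 1.54-fold lower in TC and 1.36-fold higher in S-MT, so that neither gene was lower in ED alone. With 1 value a side, none of these differences between groups could be tested.

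Native tissue gives a common point for both ED columns, which therefore share its error. The native column was entered at 4 weeks, so its comparison with ED at 12 weeks is not matched for time. It had 20 genes within the cut-off, all of which were also within it in both ED columns. With the mean of *Ldha* and *Rplp1*, 11 of the 20 were at least 2-fold higher than native and 2 lower at 4 weeks, and 4 were higher and 4 lower at 12 weeks. With *Rplp1* alone, 3 were higher and 8 lower at 4 weeks, and 7 were higher and 4 lower at 12 weeks, so that the balance at 4 weeks turned with the reference. *Col2a1* was higher than native in all 4 of these comparisons, with log2 folds of 3.84 at 4 weeks and 2.32 at 12 weeks with the mean, and of 2.52 and 2.71 with *Rplp1* alone. *Fn1* was lower than native by log2 folds of -3.72 with the mean and -3.33 with *Rplp1* alone at 12 weeks. At 4 weeks it had -0.25 with the mean and -1.58 with *Rplp1* alone. *Col3a1* was higher than native at 4 weeks with the mean (log2 fold 2.13), but within 2-fold with *Rplp1* alone (0.80). At 12 weeks it was lower with both references (-1.61 and -1.22). Of the 83 genes detected in ED at 12 weeks, 63 were over the cut-off in native tissue, where well H06 had a Ct of 34.9.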

How the data were processed

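The authors ran a rat osteogenesis PCR array of 96 wells with SYBR Green on total RNA and deposited the threshold cycle of each well, linear values normalized to *Ldha* and *Rplp1*, and a table of fold changes relative to native. The last were not used, because they hold the authors' own comparisons. Groups come from the sample titles. Wells were named through the symbol column of the normalized table, and all 84 target symbols were found in a RefSeq table of rat genes. Well names H06 to H12 come from the layout this maker normally uses, and no source used here names them.

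Wells with no Ct or one over 35 were given the value 35, the average of *Ldha* and *Rplp1* (or *Rplp1* alone) was subtracted, and 2 was raised to the negative difference to give the fold. A gene over 35 at 4 weeks has a lower bound, and a gene over it at both times has no fold. The lead over well H06 used the Ct as deposited. Genes were placed in 14 lists by known function. The comparison, the lists and the genes named were chosen with earlier results of these data known. The rule names genes past 2-fold in the same direction with both references, the 10 highest and 10 lowest, genes over the cut-off in 1 column, and 2 to 4 per list. Other settings numbered 14, and 3 other references were added after the data were seen. With 1 value a side neither a test nor an error could be had, and no replicate could be left out. The cut-off leaves 41 of the folds as lower bounds, and what well H06 means for the values of other wells was not tested. Python 3.11.15, numpy 2.4.6, pandas 2.3.3 and matplotlib 3.10.9 were used, and the calculation was tested on simulated data. The authors' normalized values gave folds within 5% of the recomputed ones for 42 of 42 genes measured in both columns. They also hold a value at 4 weeks for *Egf*, whose deposited Ct was 37.7.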

Additional observations from a re-analysis of the deposited data

Results flagged for a closer look

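Control wells of 3 kinds had a Ct in ED at 12 weeks at least 1 cycle earlier than in native tissue. Well H06 had 29.2 cycles against 34.9 in native, wells H07 to H09 a mean of 22.0 against 23.8, and wells H10 to H12 a mean of 19.1 against 21.9. In ED at 4 weeks none of the 3 was 1 cycle earlier than native. Their part in the folds of the target genes was not tested.

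Genes measured at both times in ED and in another operated group were also picked out where the change from 4 to 12 weeks was past 2-fold in opposite directions. These differences were not tested, since each rests on 1 value per group and time, and the log2 folds are against the mean of *Ldha* and *Rplp1*. Against S-MT, *Col3a1* had -3.74 in ED and 1.20 in S-MT, *Mmp2* -2.51 and 1.09, *Col1a1* -2.10 and 1.25, and *Col2a1* -1.52 and 1.05. With *Rplp1* alone only *Col3a1* of these 4 was still past 2-fold in ED (-2.02), while *Mmp2* had -0.79, *Col1a1* -0.39 and *Col2a1* 0.19. Against S-AT, *Ctsk* had 2.08 in ED and -4.24 in S-AT, *Bmp1* 1.80 and -4.09, *Cdh11* 1.53 and -3.67, *Flt1* 2.52 and -2.98, *Smad2* 1.94 and -2.14, *Nfkb1* 2.49 and -2.12, and *Pdgfa* 2.99 and -2.02. Well H06 came 4.84 cycles earlier in ED and 3.19 cycles later in S-AT over the same interval. The mean Ct of wells H10 to H12 came 2.01 cycles earlier in ED and 4.82 cycles later in S-AT. The part of these wells in the opposite directions was not tested. Against TC, *Comp* had -2.09 in ED and 1.41 in TC, and with *Rplp1* alone it had -0.37 in ED. With *Rplp1* alone the 7 genes set against S-AT had 3.25 to 4.71 in ED and -4.31 to -2.09 in S-AT.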

How the results depend on the processing

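The counts of genes at least 2-fold higher in ED at 12 than at 4 weeks, and of genes at least 2-fold lower in ED at 12 than at 4 weeks, depend on the reference and on the cut-off. Against 56 higher and 14 lower genes with the mean of *Ldha* and *Rplp1*, *Rplp1* alone gave 68 and 4, *Ldha* alone 24 and 26, all 5 housekeeping genes 64 and 5, the median of the target genes measured in both columns 28 and 25, and no reference 68 and 2. A Ct cut-off of 33 gave 27 and 15, no cut-off 48 and 14, and an amplification of 1.9 per cycle 55 and 14. Genes measured in both columns gave 20 and 14, and the authors' normalized values 21 and 14. Rows A to D of the plate gave 29 and 10 of 47 genes, and rows E to G 27 and 4 of 36. Among the 6 genes ahead of well H06 in both columns, 0 were higher and 6 lower with the mean, and 0 higher and 2 lower with *Rplp1* alone. Of references added after the data were seen, 4 housekeeping genes without *Ldha* gave 68 and 2, wells H10 to H12 gave 55 and 15, and wells H07 to H09 gave 58 and 12. Counts over part of the genes are smaller by construction. A Ct cut-off of 33 left 23 genes detected at 4 weeks in place of 42, and no cut-off 71. The numbers ahead of well H06 do not use the cut-off.

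Genes past 2-fold that changed sign, as log2 folds, were *Col2a1* (0.19), *Col4a1* (0.29), *Itgav* (0.40) and *Spp1* (0.14) with *Rplp1* alone. With no reference *Col1a2* had 0.11, *Col2a1* 0.43, *Col4a1* 0.53, *Itgav* 0.64, *Itgb1* 0.16 and *Spp1* 0.38, and with 4 housekeeping genes 0.087, 0.41, 0.51, 0.62, 0.14 and 0.36. With *Ldha* alone *Cdh11* had -0.19, *Smad5* -0.54, *Tgfbr1* -0.16 and *Vegfa* -0.59, and with the median of target genes *Smad5* had -0.32 and *Vegfa* -0.38. Leaving out a replicate could not be run. No paired analysis was possible because each column holds 1 value per well.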
